A study of Danio rerio with 18 samples.

Results

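Homozygous kif7co63/co63 zebrafish embryos were compared with heterozygous kif7co63/+ embryos at 4 days past fertilization (dpf) across all genes by bulk RNA sequencing. The comparison took the 4 libraries labelled with these genotypes and this age out of 18 in the series, 2 pools per genotype, each made from 20 whole embryos. The other libraries were 2 AB (wild-type) pools of the same age and single fish of 6 weeks past fertilization (wpf), of which 6 kif7co63/co63 fish (3 scoliotic and 3 non-scoliotic) and 3 kif7co63/+ fish were used here to look at the same genotypes in animals outside the comparison, with the reads of the 3 AB fish of that age given beside them for some genes. No embryo received a treatment beyond its genotype.

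kif7co63 is a small CRISPR-Cas9 insertion and deletion in an early exon of kif7 that adds amino acids and keeps the reading frame. The count of kif7 reads therefore need not fall with the allele, and the counts used here cannot check the genotype labels. The line was outcrossed to AB fish, homozygous animals were bred on by incrossing homozygotes, and the matings that gave these pools are not given in the sources used here. Every kif7co63/co63 library thus derives from 1 mutant line. The labels do not say whether the pools of a genotype came from separate clutches, so p-values measure the spread between these pools alone. A whole embryo was the tissue, and in such bulk RNA fewer cells of a type and less RNA per cell cannot be told apart.

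Kif7 is a kinesin that sits at the tip of the primary cilium, where it organizes the axoneme end and meets the Gli transcription factors and their inhibitor Sufu. In the Hedgehog pathway a ligand such as Shh binds the receptor Ptch, which frees the membrane protein Smo, and Gli factors then switch on targets that include ptch1, gli1 and hhip. In zebrafish the pathway patterns the slow muscle, floor plate and fin buds, and the co63 homozygotes are studied because some of them develop a curved spine as juveniles. The comparison asks which transcripts differ between the genotypes in embryos, before curvature.

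The 4 pools held 44503110 to 52544949 counted reads, and 22349 of the 31901 genes in the table had enough reads to be tested. The kif7co63/co63 pools stood further apart from each other than the pools of the other genotypes did. Between them 1283 genes (5.74%) differed by more than 4-fold in normalized CPM (reads scaled to the library total, with trimmed-mean (TMM) factors), against 303 genes (1.36%) between the kif7co63/+ pools and 534 genes (2.39%) between the AB pools. Across genotypes, 785 to 1063 genes differed by that much between a kif7co63/co63 and a kif7co63/+ pool. That was fewer in each of the 4 pairings than between the kif7co63/co63 pools. These counts were taken on log2 normalized CPM with a prior count of 2, which shrinks the folds of genes with few reads. The log2 differences between pools over a list, given below, used the same values. The share of reads from mitochondrial genes was 7.75% in kif7co63/co63 pool 1 and 3.32% in pool 2, beside 4.32% and 4.31% in the kif7co63/+ pools. Results are therefore given with the reads of each pool, in the order pool 1, pool 2.

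At 4 dpf 8 genes passed the test, 6 lower and 2 higher in kif7co63/co63 embryos (edgeR's quasi-likelihood test, Benjamini-Hochberg adjusted p under 0.05, 0.0358% of tested genes). An unadjusted p under 0.05 was reached by 1173 genes (5.25%), 445 of them higher (1.99%) and 728 lower (3.26%) in kif7co63/co63 pools, and an unadjusted p under 0.01 by 353 genes (1.58%), 108 higher and 245 lower. In 3734 genes (16.7%) both kif7co63/co63 pools lay above both kif7co63/+ pools, and in 3691 (16.5%) both lay below. The median log2 fold change over all tested genes was -0.03. DESeq2 called 237 genes, 76 higher and 161 lower, the 8 among them. It was run on 27001 genes with no filter on low counts before the fit. With no such filter edgeR called 80, and the cause of the gap between the tools was not tested. Leaving out kif7co63/co63 pool 1 gave 3690 calls and leaving out pool 2 gave 7498, fits in which the spread comes from the kif7co63/+ pools alone and the lone homozygous pool is assumed to share it. Leaving out kif7co63/+ pool 1 or pool 2 gave 80 and 100. All 8 genes were called in each of those 4 fits, in the same direction.

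kif7 itself had 559 and 1223 reads in the kif7co63/co63 pools, 813 and 824 in the kif7co63/+ pools, and 970 and 686 in the AB pools. The kif7co63/co63 values thus lay on either side of the heterozygous ones. Its log2 fold change was 0.00 ± 0.40 (SE, n = 2 pools per genotype; edgeR's quasi-likelihood test, adjusted p = 1.00), and it depended on the pool kept, at 0.44 without kif7co63/co63 pool 1 and -0.55 without pool 2 (edgeR, adjusted p = 0.131 and 0.0433). At 6 wpf kif7 had 1175 to 1687 reads in the 6 kif7co63/co63 fish and 1160 to 1688 in the 3 kif7co63/+ fish. The AB fish of that age had more than any of these, with 2409, 2540 and 3338 reads.

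Hedgehog pathway genes showed no call between the genotypes. Of 36 tested members of a list of ligands, receptors, transducers and targets, edgeR's quasi-likelihood test called 0, DESeq2 called 0, and 0 reached an unadjusted p under 0.05. Their log2 fold changes ran from -0.47 to 0.86 with a median of -0.09, and both kif7co63/co63 pools lay above the heterozygous pools in 7 genes (19.4%) and below in 4 (11.1%), beside 16.7% and 16.5% of all genes. Without kif7co63/co63 pool 1 the median was 0.24, and without pool 2 it was -0.40.

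Among the targets, ptch1 had 416 and 551 reads in kif7co63/co63 pools and 410 and 394 in kif7co63/+ pools, with 10 and 87 in AB pools. gli1 had 1688 and 1266 reads against 1044 and 1328, so the genotypes overlapped. hhip, which encodes a Hedgehog-binding inhibitor, had 62 reads in kif7co63/co63 pool 1 and 1008 in pool 2, beside 520 and 522 in the kif7co63/+ pools. For hhip the homozygous pools thus bracketed the heterozygous ones, more than 4-fold apart. Of the transducers, smo had 3440 and 2994 reads against 2726 and 2806, and the genotypes overlapped once scaled to normalized CPM. The gene sufu, whose product holds Gli proteins back, had 1626 and 1968 against 1994 and 1991.

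Of the 6 genes that fell in kif7co63/co63 embryos, all but ndufa1 had at most 14 reads in either pool. ctsba, which encodes a form of the lysosomal protease cathepsin B (chromosome 17, 32622931 to 32631514 on GRCz11), had 0 and 1 reads in kif7co63/co63 pools, 3492 and 1565 in kif7co63/+ pools and 4865 and 4778 in AB pools. si:dkeyp-73d8.6 (chromosome 2, 32621677 to 32624577), a protein-coding gene known by a clone name, had 0 and 1 reads against 513 and 503, with 449 and 523 in AB. No homozygous pool came near the lowest of the other 4 pools for either gene. On pooled reads the heterozygous level was 5306 times the homozygous one for ctsba (exact 95% interval 952 to 209605) and 1066 times for si:dkeyp-73d8.6 (191 to 42144), intervals that cover counting error only. edgeR's quasi-likelihood test gave an adjusted p of 0.0247 for each.

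si:ch73-119p20.1 (chromosome 7, 13375565 to 13381129), a protein-coding gene 1.02 Mb before the start of kif7, had 8 and 14 reads in kif7co63/co63 pools, 1396 and 1281 in kif7co63/+ pools and 4121 and 3016 in AB pools. It fell by 7.02 ± 0.43 on the log2 scale (SE; edgeR, adjusted p = 0.0247). si:dkey-14d8.6 (chromosome 4, 5531583 to 5533803) had 6 and 9 reads against 635 and 664, with 1797 and 3073 in AB, and fell by 6.52 ± 0.44 (edgeR, adjusted p = 0.0247). In both genes the AB pools were the highest of the 6 and the homozygous pools the lowest.

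A pair of the lower genes lay on chromosome 14, 654 kb apart. lonrf1 (34068075 to 34092744), a RING-finger protein with a LON domain, had 4 and 12 reads in kif7co63/co63 pools, 676 and 644 in kif7co63/+ pools, and 4986 and 1712 in AB pools, and fell by 6.46 ± 0.55 on the log2 scale (SE; edgeR, adjusted p = 0.0377). ndufa1 (33413980 to 33415439), an accessory subunit of mitochondrial complex I, had 110 and 97 reads against 1872 and 1593, with 2857 and 1864 in AB, and fell by 4.17 ± 0.33 (edgeR, adjusted p = 0.0299). ndufa1 kept more reads in kif7co63/co63 pools than any other of the 6 lower genes.

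The 2 genes that rose lay on chromosome 11, with starts 623 kb apart. slc38a3a (34824099 to 34914857), a member of the SNAT family that carries glutamine across the cell membrane, had 3071 and 2541 reads in kif7co63/co63 pools, 146 and 140 in kif7co63/+ pools and 42 and 13 in AB pools. It rose 18.2-fold, a log2 change of 4.19 ± 0.33 (SE; edgeR, adjusted p = 0.0299). sema3fb (35447417 to 35575830), a secreted semaphorin of the class that steers axons and migrating cells, had 1021 and 1073 reads against 49 and 56, with 22 and 1 in AB, and rose 18.4-fold, a log2 change of 4.21 ± 0.34 (edgeR, adjusted p = 0.0299). The sema3fb call was lost when all 4 dpf libraries shared a fit (edgeR, adjusted p = 0.0896), and the calls of ctsba, slc38a3a and sema3fb were lost when libraries of both ages did (edgeR, adjusted p = 0.236, 0.164 and 0.183).

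In 7 of the 8 genes the heterozygous pools lay between the homozygous and the AB pools in normalized CPM, an order found in 4.82% of all tested genes, and si:dkeyp-73d8.6 was the exception. The homozygous and heterozygous values in that order are those that chose the 8 genes, and the AB pools played no part in the choice. The 4.82% also counts genes whose homozygous and heterozygous pools overlapped, which could not show the order. It is therefore not a like baseline for the 8 genes.

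**Figure D1:**
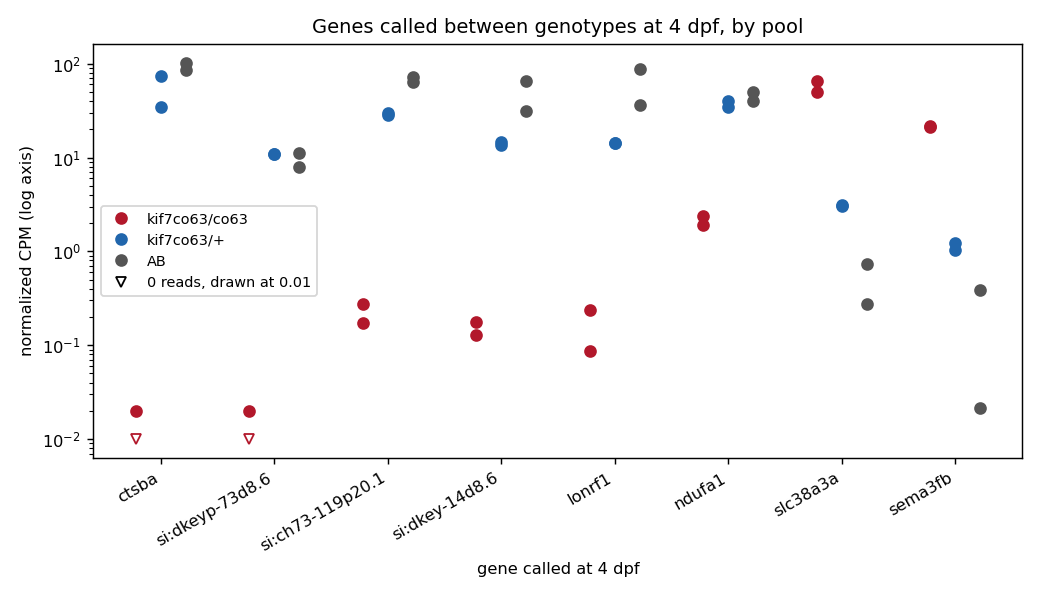
Normalized CPM (y axis, log scale) of the 8 called genes (x axis) in each pool of 20 embryos, 2 pools per genotype, red for kif7co63/co63, blue for kif7co63/+ and grey for AB, with open triangles for pools with 0 reads drawn at 0.01. The red points sit below the blue for 6 genes and above them for slc38a3a and sema3fb, and no gene has overlapping red and blue points.

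The genes next in rank did not pass the adjusted test. They were picked among genes whose pools did not overlap between the genotypes, so their separation is a description. Of all tested genes, 16.7% had both homozygous pools above the heterozygous ones and 16.5% both below. Among those higher in kif7co63/co63 pools, zgc:92606 had 2561 and 2021 reads against 189 and 144 in kif7co63/+ pools, with a log2 fold change of 3.68 ± 0.35 (SE; edgeR, adjusted p = 0.0589). camkvb, which encodes a vesicle-associated relative of the calmodulin kinases and lies 83.0 kb before sema3fb, had 663 and 444 reads against 25 and 25 (log2 fold change 4.36 ± 0.43; edgeR, adjusted p = 0.0589). hnrnpdl, an RNA-binding protein, had 3895 and 1316 reads against 41 and 45, and si:ch73-234b20.5, on the same chromosome 10, had 959 and 370 against 9 and 7. AB pools held 54 and 57 reads of hnrnpdl and 8 and 3 of si:ch73-234b20.5, close to the heterozygous pools. DESeq2, which called 237 of the 27001 genes it was run on, called each of these 4 genes.

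The choriolytic enzymes that free the embryo from its chorion stood among these genes. he1.1 had 1268 and 985 reads in kif7co63/co63 pools against 80 and 30 in kif7co63/+ pools and 90 and 14 in AB pools. he1.2 had 254 and 131 reads against 3 and 4, with 8 and 5 in AB. Their log2 fold changes were 4.26 ± 0.53 and 5.63 ± 0.69 (SE; edgeR, adjusted p = 0.112 and 0.111), and both homozygous pools exceeded all 4 others for each enzyme. Hatching enzymes are made by the hatching gland and wane after hatching in zebrafish, and the copies are alike, so reads may have been split between them.

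Among genes lower in kif7co63/co63 pools, selenon, a selenoprotein of the muscle endoplasmic reticulum, had 20 and 28 reads against 421 and 567 (log2 fold change -4.47 ± 0.43; edgeR, adjusted p = 0.0589). bsdc1 had 122 and 183 reads against 1609 and 1564, and uap1l1, a relative of the enzyme that makes UDP-N-acetylglucosamine, had 55 and 77 against 650 and 666. tia1, an RNA-binding protein of stress granules, had 10 and 20 reads against 329 and 372, and tmem119b had 5 and 8 against 208 and 226. AB pools were higher still for bsdc1 (3074 and 2958) and tia1 (972 and 826), and lower than the heterozygous pools for selenon (159 and 296). edgeR's adjusted p for these 5 genes lay between 0.0589 and 0.0761. All 5 were among the 237 of 27001 genes that DESeq2 called.

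Presence or near absence of reads set a further group apart. Counting genes with at most 3 reads in each pool of one genotype and at least 30 in each pool of the other, 20 were low in kif7co63/co63 and 8 were low in kif7co63/+ embryos. The 20 included ctsba, si:dkeyp-73d8.6, the palmitoyltransferase zdhhc24 (0 and 1 reads against 113 and 78), the RNA polymerase II subunit polr2l (0 and 0 against 47 and 70) and trim35-1 (0 and 0 against 122 and 74). Of the 20, 16 had at least 30 reads in both AB pools, and 0 had at most 3 in both. How often other genes with at least 30 reads in each kif7co63/+ pool also had them in both AB pools was not counted. For genes with 0 homozygous reads the ratio is a lower bound against a floor of 3 reads over the group, and it was at least 40.9-fold for polr2l and at least 68.5-fold for trim35-1.

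The 8 genes low in kif7co63/+ embryos were led by si:ch211-167j9.4, with 546 and 220 reads in kif7co63/co63 pools and 0 in both kif7co63/+ and both AB pools, a ratio to heterozygotes of at least 243-fold. The chemokine receptor gene cxcr3.1 had 49 and 58 reads against 0 and 1, and casq1a, a calcium store protein of the muscle sarcoplasmic reticulum, had 72 and 36 against 3 and 0. In 4 of the 8, AB pools also had at most 3 reads, and the like share over other genes was not counted. These genes were picked for this pattern, so their 4 dpf values are a description.

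Fish of 6 wpf share no library with the pools, but the homozygous fish come from the same mutant line. They gave a further look at the same genes, not one independent of that line. Of the 20 genes low in kif7co63/co63 embryos, 15 had at most 3 reads in all 6 kif7co63/co63 fish, and 12 (60.0%) also had at least 30 in all 3 kif7co63/+ fish, a pattern found in 0.0972% of all genes in the table. Of the 8 genes low in kif7co63/+ embryos, 4 had at most 3 reads in all 3 kif7co63/+ fish, and 0 also had at least 30 in all 6 kif7co63/co63 fish, as 0.0251% of all genes did. The genes of both groups were chosen for having reads at 4 dpf, while these shares also count genes with few reads. The 0.0972% also includes the 12 genes, so neither share is a like baseline. Of the 12, si:dkey-23c22.9 and si:ch211-261n11.8 lie close together on chromosome 8. zdhhc24 and pttg1, also of the 12, each start within 500 kb of lonrf1 on chromosome 14. The 12 are therefore not 12 separate places in the genome. Among the 8 low in kif7co63/+ embryos, cxcr3.1, BX957279.1 and si:dkey-247i3.1 rose at 6 wpf (edgeR, adjusted p = 0.0375, 0.0193 and 0.0477), where 21.7% of all tested genes rose. For these the kif7co63/co63 fish ranged from 0 reads to 272, 50 and 40. ctsba had 0 or 1 reads in the homozygous fish and 1266 to 7907 in the heterozygous fish, but the AB fish had 0, 21166 and 0. med7, a Mediator subunit with 0 and 9 reads against 719 and 628 at 4 dpf, had 0 reads in every homozygous fish and 851 to 1160 in the heterozygous fish.

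The 6 genes that fell at 4 dpf all fell at 6 wpf as well, by 4.44 on the log2 scale for ndufa1 and by more for the others. Of all genes tested at 6 wpf, 20.4% fell. lonrf1 had 2 to 13 reads in kif7co63/co63 fish and 2114 to 2478 in kif7co63/+ fish, and si:ch73-119p20.1 had 1 to 5 against 825 to 985. The AB fish had 1426, 607 and 1757 reads of lonrf1, fewer than any heterozygous fish, unlike the order at 4 dpf. Of si:ch73-119p20.1 they had 2115, 2008 and 2334, more than any heterozygous fish. For ndufa1 the AB fish had 1862, 517 and 2513 reads, on either side of 891, 1522 and 1070 in the heterozygous fish. edgeR's quasi-likelihood test gave adjusted p-values from 1.06e-06 to 6.02e-05 for the 6 genes at 6 wpf. The test of the difference between the ages passed for lonrf1 of these 6 genes (edgeR, adjusted p = 0.0226), with 9.10% of all genes passing it.

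The 2 genes that rose at 4 dpf did not pass the test at 6 wpf, where homozygous fish differed among themselves. slc38a3a had 1483, 892 and 1276 reads in the scoliotic kif7co63/co63 fish, 12, 655 and 12 in the non-scoliotic ones and 526, 596 and 644 in the kif7co63/+ fish. sema3fb had 563, 482 and 586 reads in scoliotic fish, 1, 401 and 10 in non-scoliotic fish and 200, 237 and 268 in kif7co63/+ fish. The same 2 non-scoliotic fish were near 0 for both genes, and for camkvb with 2 and 1 reads beside 71 in the other. The 3 AB fish of that age were low as well, with 4, 45 and 16 reads of slc38a3a. They had 3, 4 and 3 reads of sema3fb and 1, 2 and 2 of camkvb, so the 2 low fish were near the AB level. The log2 fold changes at 6 wpf were 0.44 ± 1.19 and 0.67 ± 1.21 (SE; edgeR, adjusted p = 0.797 and 0.690), and the difference between ages was not called for either gene (edgeR, adjusted p = 0.105 and 0.159).

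All genes with an unadjusted p under 0.01 at 4 dpf were then looked up at 6 wpf. Of 227 lower genes tested at 6 wpf, 112 (49.3%) fell there and 22 (9.69%) rose. Of 102 higher genes, 34 (33.3%) rose there and 11 (10.8%) fell. At 6 wpf 20.4% of all tested genes fell and 21.7% rose. Fish and pools of a genotype come from the same line, so the allele and the rest of that line's genome cannot be told apart.

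**Figure D2:**
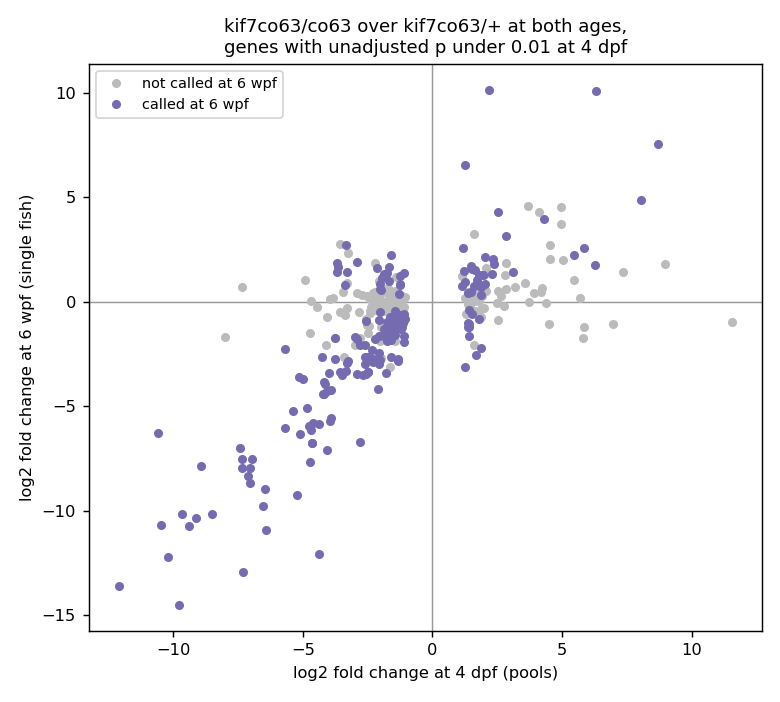
Log2 fold change of kif7co63/co63 over kif7co63/+ in pools at 4 dpf (x axis) and in single fish at 6 wpf (y axis) for genes with an unadjusted p under 0.01 at 4 dpf and tested at both ages, purple where called at 6 wpf and grey where not. The genes most reduced at 4 dpf lie mostly in the lower left, while the most increased ones spread over positive and negative values at 6 wpf.

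Genes with a low p lay near one another on the chromosomes. Of the 353 genes with an unadjusted p under 0.01, 183 (51.8%) had another such gene within 500 kb of their start, beside 21.0% of all tested genes. Around lonrf1, 7 of 15 other tested genes within 500 kb had an unadjusted p under 0.01. They included med7, which starts 3.83 kb before lonrf1 (log2 fold change -7.30 ± 0.92, SE), zdhhc24 (-7.35 ± 1.01) and cyfip2, a subunit of the WAVE actin regulator, with 24 and 60 reads against 612 and 850 (-4.24 ± 0.53). edgeR's adjusted p for these 3 genes lay between 0.111 and 0.146. gria1a, a glutamate receptor subunit in the same stretch, was the other way, with 166 and 168 reads against 14 and 41.

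Beside ndufa1, the ribosomal protein gene rpl39 had 743 and 530 reads in kif7co63/co63 pools and 3528 and 3678 in kif7co63/+ pools, with 3318 and 2291 in AB (log2 fold change -2.60 ± 0.34, SE; edgeR, adjusted p = 0.126). At 6 wpf med7, zdhhc24, cyfip2 and rpl39 all fell (edgeR, adjusted p from 5.90e-06 to 8.24e-04), where 20.4% of all tested genes fell. The genes around ctsba and si:dkey-14d8.6 did not follow their called neighbour, since 0 of 14 and 0 of 46 had an unadjusted p under 0.01, with 1 and 0 under 0.05. With the window of 500 kb, the median log2 fold change of the neighbours lay between -0.07 and 0.18 for each called gene.

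**Figure D3:**
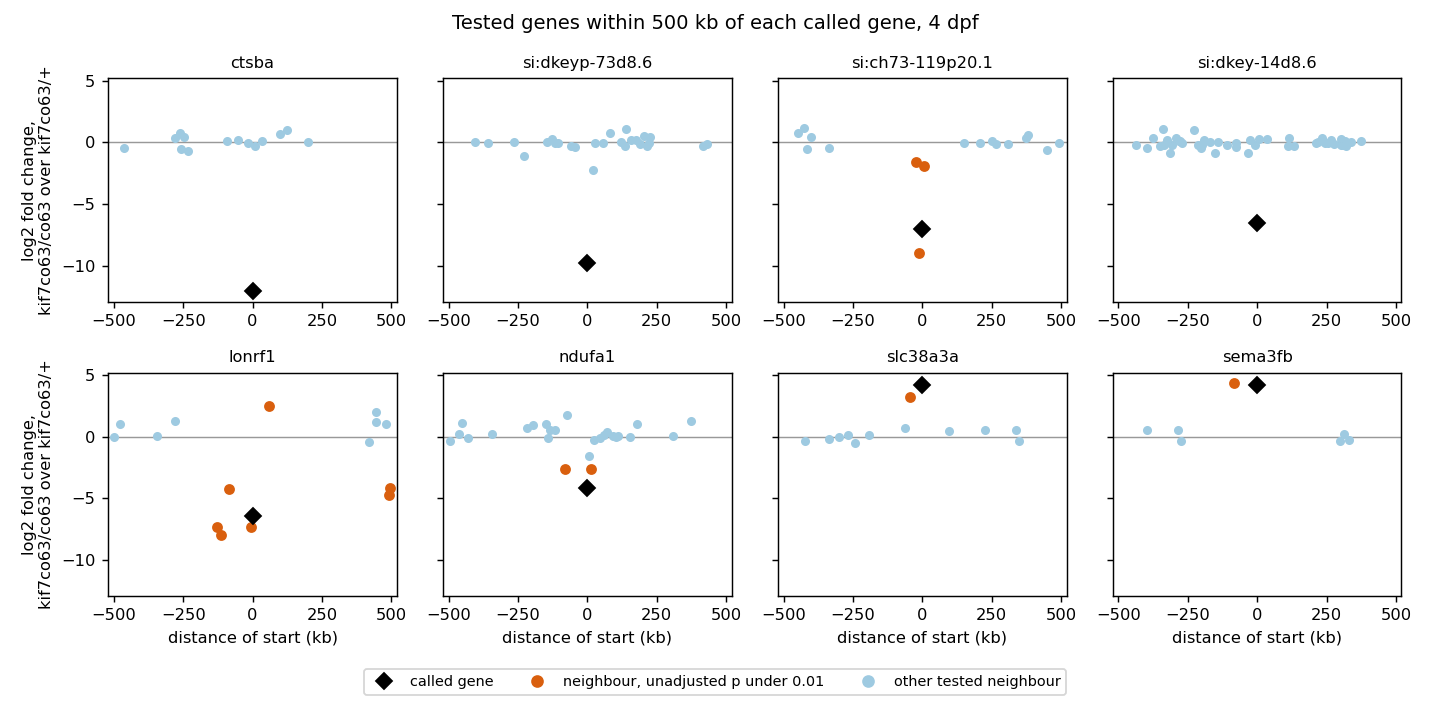
Log2 fold change at 4 dpf (y axis) of tested genes whose start lies within 500 kb (x axis, distance of start from that of the called gene) of each of the 8 called genes, 1 panel per called gene. Black diamonds mark the called gene, orange points the neighbours with an unadjusted p under 0.01 and light blue the rest. The panel of lonrf1 holds 7 orange points, with gria1a above 0 and the others below. Those of si:ch73-119p20.1 and ndufa1 hold 3 and 2, all below 0, and those of slc38a3a and sema3fb hold 1 each, above 0.

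kif7 lies on chromosome 7, so genes near it were counted apart. Within 5 Mb of kif7, 118 other genes were tested, and their median log2 fold change was -0.00. Of these, 1 was called (si:ch73-119p20.1), 5 including it were lower with an unadjusted p under 0.05 and 0 were higher, beside 3.26% and 1.99% of all tested genes. Both homozygous pools lay above the heterozygous in 13.6% of the 118 genes and below in 18.6%, near the 16.7% and 16.5% of all genes. polr2l and sdhaf2 start 11.7 and 22.5 kb before si:ch73-119p20.1 and dagla 7.29 kb after it. dagla, which makes the endocannabinoid 2-arachidonoylglycerol, had 263 and 625 reads against 1286 and 1702, and sdhaf2, an assembly factor of succinate dehydrogenase, had 107 and 202 against 457 and 408. At 6 wpf all 3 fell, dagla by 1.29 and sdhaf2 by 1.21 on the log2 scale (edgeR, adjusted p = 3.81e-05 and 2.01e-04). Of all genes tested at that age, 20.4% fell.

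Of 28 lists of tissue markers and pathways, 3 held 1 call each, and the called members were lonrf1, sema3fb and slc38a3a. Of all tested genes 0.0358% were called. The lists were written with earlier results of these data known, so a call within a list is a description. Lens genes held more members on the higher than on the lower side in kif7co63/co63 pools at 4 dpf. Of 55 tested crystallins and other lens genes, 11 were higher with an unadjusted p under 0.05 and 0 lower, both homozygous pools lay above the heterozygous in 22 (40.0%) and below in 2 (3.64%), and the median log2 fold change was 0.46. For this and the lists below, 1.99% of all tested genes were higher and 3.26% lower at an unadjusted p under 0.05. Both homozygous pools lay above in 16.7% of all tested genes and below in 16.5%. DESeq2 called 237 of the 27001 genes it was run on. cryba1l2 had 2715 and 2181 reads against 790 and 939, with 1444 and 1222 in AB, and crygn2 had 59709 and 41361 against 17651 and 15954, with 49101 and 37277 in AB (edgeR, adjusted p = 0.491 and 0.620). AB pools lay above the heterozygous pools for both crystallins. DESeq2 called 2 of the 55, and the median stayed between 0.44 and 0.59 when any 1 of the 4 pools was left out. At 6 wpf 1 of 54 tested lens genes rose and 14 fell, where 21.7% of all tested genes rose and 20.4% fell. cryba1l2 fell there by 0.39 on the log2 scale (edgeR, adjusted p = 0.0301). Crystallins are near-identical copies of one another in part, so reads may have been split between them.

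Photoreceptor genes had a median log2 fold change of 0.25 over 52 tested members, with 4 higher and 1 lower at an unadjusted p under 0.05, and DESeq2 called 1. The long-wave cone opsin gene opn1lw2 had 79380 and 41629 reads in kif7co63/co63 pools, 18054 and 17222 in kif7co63/+ pools and 12600 and 9256 in AB pools (log2 fold change 1.68 ± 0.47, SE; edgeR, adjusted p = 0.642). At 6 wpf opn1lw2 rose, with 5113 to 13817 reads in homozygous and 1800 to 2004 in heterozygous fish (log2 change 2.08; edgeR, adjusted p = 9.59e-04). rho, the rod opsin gene, had 8279 and 137340 reads in the homozygous pools, on either side of 70912 and 69092 in the heterozygous ones.

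Innate immune genes leaned to the lower side in kif7co63/co63 pools. Of 34 tested genes of neutrophils, macrophages and inflammation, edgeR called 0, DESeq2 called 5, 8 had an unadjusted p under 0.05 and all 8 were lower, and both homozygous pools lay below the heterozygous in 12 (35.3%) and above in 4 (11.8%). Among all tested genes 16.5% lay below and 16.7% above. DESeq2 called 237 of the 27001 genes it was run on. The median log2 fold change of the list was -0.37, but 0.12 without kif7co63/+ pool 1. The log2 level of that pool exceeded that of kif7co63/+ pool 2 by a median of 0.67 over the list. irg1l, a relative of the itaconate-making enzyme gene acod1, had 364 and 394 reads against 7397 and 1523. The macrophage gene mpeg1.2 had 1461 and 937 reads against 6377 and 2885, and the leukocyte chemokine cxcl8a had 127 and 54 against 479 and 311.

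AB pools were closer to the homozygous ones for several of these genes. socs3a, a feedback inhibitor of cytokine signalling, had 662 and 1704 reads in kif7co63/co63, 5489 and 3787 in kif7co63/+ and 1157 and 712 in AB pools. lect2l had 832 and 542 reads against 3990 and 2068, with 1553 and 1088 in AB. At 6 wpf irg1l and mpeg1.2 rose in homozygous fish, by 1.66 and 0.62 on the log2 scale (edgeR, adjusted p = 0.0146 and 0.0373), and socs3a fell by 4.17 (edgeR, adjusted p = 8.17e-06). The difference between ages was called for irg1l, mpeg1.2, socs3a and lect2l (edgeR, adjusted p from 0.00701 to 0.0307).

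The homozygous pools also differed in fosab, an immediate early gene of the kind that cells switch on within minutes of a stimulus. fosab had 128 reads in kif7co63/co63 pool 1 and 4927 in pool 2, beside 5303 and 5250 in kif7co63/+ and 275 and 169 in AB pools. btg2 and npas4a were picked after their values were seen, for the same split. btg2 had 1195 and 13147 reads against 16745 and 14904, and 1688 and 1344 in AB. npas4a had 517 and 2956 reads against 2898 and 3713, with 740 and 510 in AB. In these 3 genes pool 1 was near AB and pool 2 near the heterozygous pools, but fosb did not show the split. fosb had 82 and 103 reads against 185 and 292 at 4 dpf, and at 6 wpf 56 to 200 reads in homozygous, 14615 to 19936 in heterozygous and 70 to 106 in AB fish. Their part in the other differences between genotypes was not tested. Of the 50 genes of stress, hypoxia and glucocorticoid response that hold them, edgeR and DESeq2 each called 0, with 3 higher and 4 lower at an unadjusted p under 0.05.

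Epidermal genes held more members on the lower than on the higher side in kif7co63/co63 pools. Of 34 tested, both homozygous pools lay below the heterozygous in 16 (47.1%) and above in 3 (8.82%), 5 were lower and 1 higher at an unadjusted p under 0.05, and edgeR and DESeq2 each called 0. Among all tested genes 16.5% lay below and 16.7% above. The median was -0.25, and between -0.21 and -0.37 when any 1 pool was left out. krt17 had 17879 and 25717 reads against 49398 and 42368, with 35381 and 35603 in AB. tp63, the transcription factor of basal keratinocytes, had 392 and 561 reads against 798 and 872, with 1572 and 1365 in AB. Both had values in AB pools above the homozygous ones, and neither was called at 6 wpf (edgeR, adjusted p = 0.592 and 0.382).

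Liver and gut gave a few genes with wide gaps. ambp, a liver gene whose protein is cut into alpha-1-microglobulin and the protease inhibitor bikunin, had 32 and 133 reads in kif7co63/co63 pools, 2085 and 1808 in kif7co63/+ pools and 3897 and 2938 in AB pools (log2 fold change -4.68 ± 0.67, SE; edgeR, adjusted p = 0.169). It fell by 6.12 at 6 wpf, with 48 to 88 reads against 4384 to 5820 (edgeR, adjusted p = 5.32e-07). apoa1a, a high-density lipoprotein apolipoprotein, had 260 and 1480 reads against 7059 and 3808. Over the 35 tested liver genes the median was -0.19, with 2 higher and 5 lower at an unadjusted p under 0.05, edgeR calling 0 and DESeq2 2. The median was 0.09 without kif7co63/+ pool 1 and -0.04 without kif7co63/co63 pool 1. Most liver genes thus did not share the gap of ambp.

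In the intestine list, fabp6, the ileal bile acid binding protein, had 5165 and 4191 reads in kif7co63/co63 pools against 1188 and 933 in kif7co63/+ pools (log2 fold change 2.04 ± 0.33, SE; edgeR, adjusted p = 0.239). slc10a2, the ileal bile acid transporter, had 137 and 196 reads against 41 and 43. In AB pools fabp6 had 2896 and 3769 reads and slc10a2 194 and 156, above the heterozygous pools. These were the only genes of the 20 tested with an unadjusted p under 0.05, and DESeq2 called 1. At 6 wpf fabp6 rose by a log2 change of 0.83 and slc10a2 had -0.34 (edgeR, adjusted p = 0.00617 and 0.268).

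Cilium and skeletal lists held no call. Of 38 genes of intraflagellar transport, the BBSome and the transition zone, 11 (28.9%) had both homozygous pools above and 0 below, with a median of 0.19, and of 36 motile cilium genes 6 (16.7%) lay above and 0 below, with a median of 0.15. Among all tested genes 16.7% lay above and 16.5% below, so the motile cilium share above was that of all genes. edgeR and DESeq2 called 0 in both lists, and 0 reached an unadjusted p under 0.05. The motile cilium median turned to -0.03 without kif7co63/co63 pool 1. Cartilage genes had a median of -0.01, notochord genes -0.24, bone genes -0.23 and collagen and matrix genes -0.15, with edgeR and DESeq2 calling 0 in each and 1 bone gene alone at an unadjusted p under 0.05. Leaving out 1 pool moved these medians to between -0.13 and 0.19 for cartilage, -0.70 and 0.11 for notochord, -0.58 and -0.05 for bone and -0.19 and -0.04 for collagen and matrix. The extremes for the first 3 came without kif7co63/co63 pool 1 (the highest) and without kif7co63/co63 pool 2 (the lowest), and for collagen and matrix without kif7co63/+ pool 2 and pool 1.

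**Figure D4:**
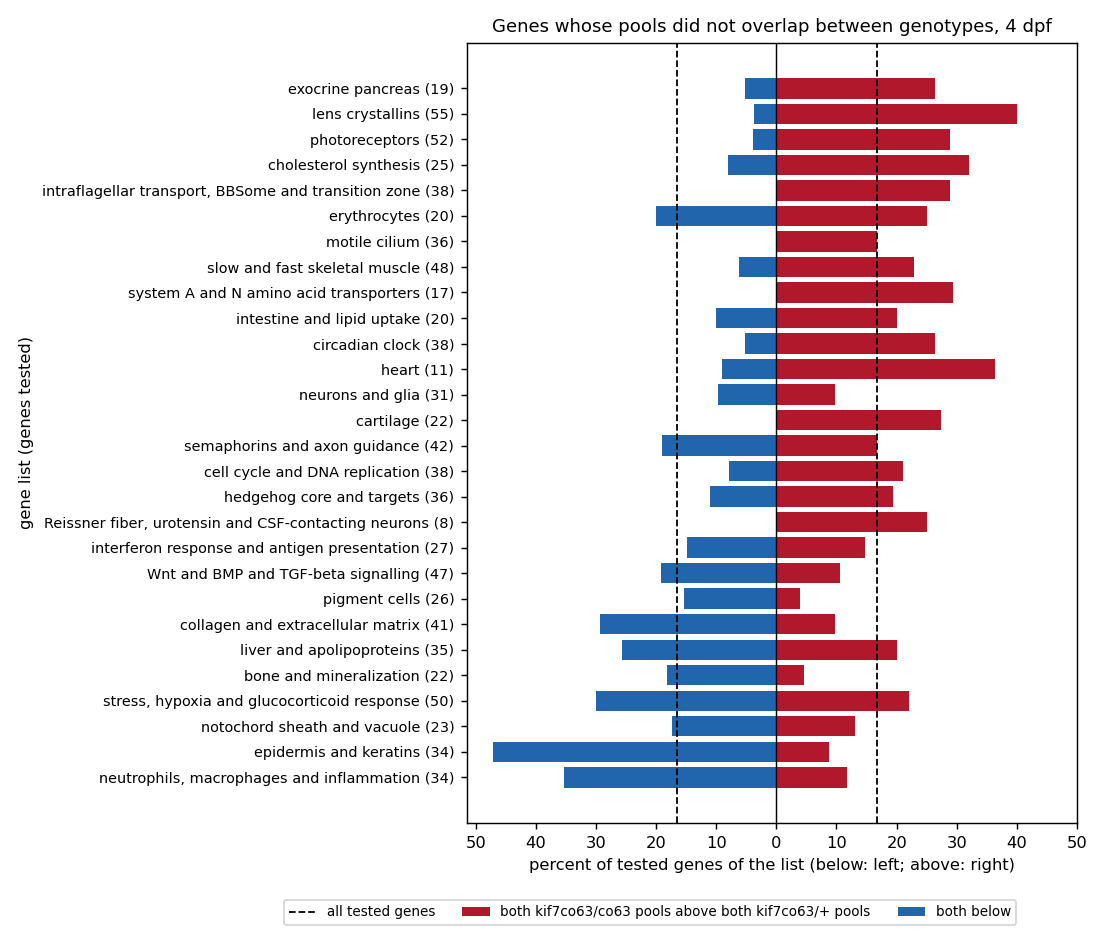
Share of the tested genes of each list (y axis, number tested in parentheses) whose kif7co63/co63 pools both lay above (red, right) or both below (blue, left) the kif7co63/+ pools, in percent (x axis), with dashed lines at the 16.7% and 16.5% of all tested genes. Lens crystallins reach 40.0% above, and epidermal genes 47.1% below.

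Muscle, lens and rod genes were among those with the largest fold between the kif7co63/co63 pools. Cardiac-type actin actc1b, which is expressed in skeletal muscle of zebrafish embryos, had 45207 reads in pool 1 and 1160256 in pool 2, beside 579305 and 450369 in kif7co63/+ pools. The lens gene crybb1 had 3076 and 84642 reads, beside 30505 and 30162. For each gene pool 1 lay far below and pool 2 above both heterozygous pools, whose values were close together. wnk1a, a kinase gene, had 55 and 2549 reads, beside 94 and 60, so that there pool 2 stood alone.

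Other genes were low in pool 2. krt4, a keratin of the surface epidermis, had 80837 reads in pool 1 and 2799 in pool 2, beside 97664 and 120125 in kif7co63/+ pools. The galectin gene lgals1l1 had 7340 and 102 reads, beside 3876 and 3316. The exocrine pancreas list was lower in pool 1, with a median log2 difference of -2.07 between the pools over 19 genes and 12 of them more than 2-fold lower in pool 1, against a median of 0.08 over all tested genes. Of the called genes with more than 30 reads in each homozygous pool, sema3fb, ndufa1 and slc38a3a differed between the pools by 1.04-, 1.24- and 1.32-fold in normalized CPM. A gene whose pools agree passes the test more readily, so these small folds follow in part from how the genes were chosen.

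**Figure D5:**
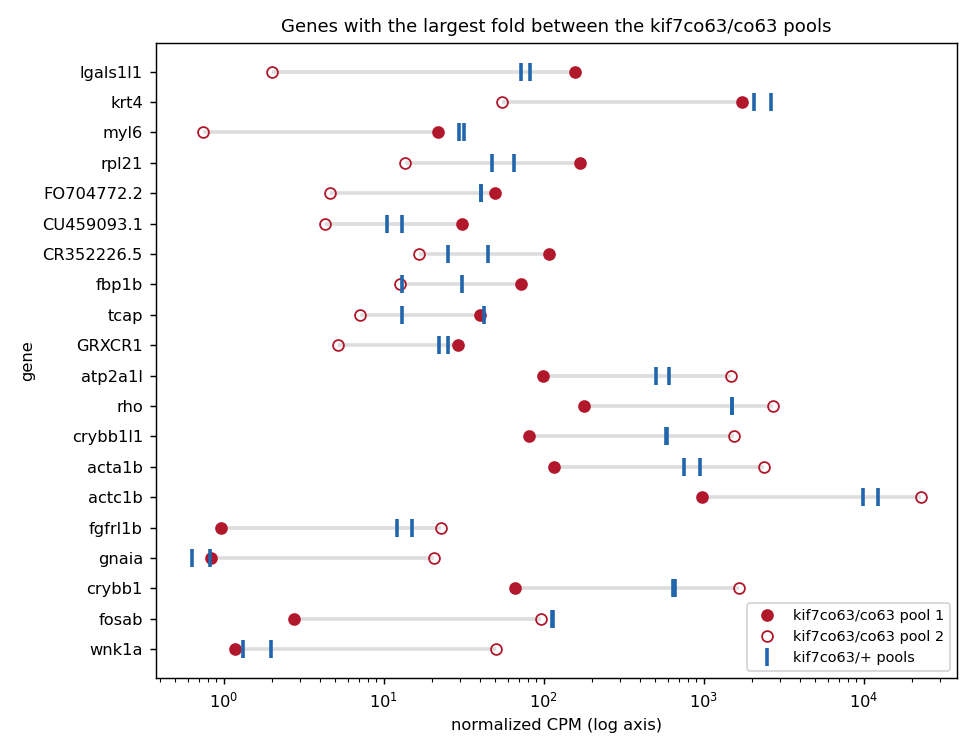
Normalized CPM (x axis, log scale) of the 20 genes (y axis) with the largest fold between the kif7co63/co63 pools among genes with at least 1000 reads in one of them, with filled circles for pool 1, open circles for pool 2 and blue bars for the kif7co63/+ pools. The blue bars of a gene lie close together for most genes, and in the actin, crystallin and rhodopsin genes they fall between the circles.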

How the data were processed

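RNA from pools of 20 whole embryos (4 dpf) or single whole fish (6 wpf) was poly-A selected and sequenced. The deposited table holds raw read counts per Ensembl gene, which the authors made after read filtering by mapping to GRCz11 with HISAT2. The submitters' processing notes also name fastp, featureCounts, StringTie and DESeq2, and whether counting used strand is not given in the sources used here, so overlapping genes are uncertain. The deposited log2 fold changes and p-values, which the authors computed with DESeq2 for another comparison of 6 wpf fish, were not used.

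Raw counts were tested with edgeR 4.0.16 in R 4.3.3 (TMM, filterByExpr, glmQLFTest), 2 pools against 2, with Benjamini-Hochberg adjustment over all tested genes at 0.05. The filter asked for about 10 reads in as many libraries as the smaller group holds, and for 15 reads in total. A gene near absent in 1 genotype could thus pass the filter through the pools of the other alone. The 6 wpf fish were fitted likewise, and the difference between ages as a contrast in 1 fit. Each SE given with edgeR was derived from the test, as the absolute log2 fold change over the square root of its F statistic. Alternatives were DESeq2 1.42.0, RLE normalization, other filters, wider fits, a replicate block and leaving out each library. Windows of 500 kb were chosen after seeing the data. Named genes followed a rule: kif7, called genes, up to 10 next-ranked genes per direction whose pools did not overlap, genes with reads in 1 genotype only, members of lists and neighbours, and genes furthest apart between the homozygous pools. The genes outside it (med7, cyfip2, rpl39, gria1a, polr2l, dagla, sdhaf2, cxcl8a, btg2 and npas4a) were chosen after their values were seen. The comparison, lists and rule were chosen with earlier results of these data known. The fits were tested on simulated data. Of 31901 identifiers, 29178 were in a table of gene names, and 3911 share a symbol with another. Only 2 pools per genotype were analysed here. Python 3.11.15, pandas 2.3.3 and matplotlib 3.10.9 made tables and figures. A result on 1 item is not reported here.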

Additional observations from a re-analysis of the deposited data

Results flagged for a closer look

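For 17 of the genes named above, the test of the difference itself found that the effect of genotype at 4 dpf was not that at 6 wpf (edgeR's quasi-likelihood test, adjusted p under 0.05), as it did for 9.10% of all genes. Many of the named genes were chosen for their 4 dpf values, which enter this difference, and the number of named genes tested is not given. The 9.10% is therefore not a like baseline for the 17. Values are the log2 fold change at 4 dpf minus that at 6 wpf in the joint fit.

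Among genes lower at 4 dpf, the value was 2.81 for lonrf1, 5.77 for med7, 2.18 for socs3a and 5.87 for fosb, all with a still lower log2 fold change at 6 wpf. In lonrf1 the homozygous level was near the floor at both ages, at 0.09 and 0.24 normalized CPM in pools and 0.04 to 0.23 in fish. Its heterozygous level was 14.3 and 14.1 in pools and 39.7 to 48.7 in fish. For med7 the homozygous fish were without reads, as given above, which sets the size of its fitted value. The value was -5.20 for irg1l, -2.61 for lect2l, -2.56 for mpeg1.2, -1.19 for krt17 and -1.03 for tp63, which were not lower at 6 wpf.

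Among genes higher at 4 dpf, the value was 5.15 for camkvb, 1.88 for cryba1l2, 1.304 for fabp6, 3.43 for hnrnpdl, 4.68 for si:ch73-234b20.5 and 2.304 for slc10a2. Of these, fabp6, hnrnpdl and si:ch73-234b20.5 also rose at 6 wpf, by less. It was 13.4 for si:ch211-167j9.4 and 8.33 for he1.1, where groups at or near 0 reads set the size of the fitted values.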

How the results depend on the processing

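At 4 dpf the count of called genes was 8 and stayed 8 with RLE normalization and with a filter at a mean of 1 CPM. It was 237 with DESeq2, 80 with no filter on low counts, 45 with all 4 dpf libraries in 1 fit and 180 with the libraries of both ages in 1 fit. Leaving out 1 pool gave 80 to 7498 calls, and without kif7co63/co63 pool 1 it gave 3690. In these fits the lone pool is assumed to vary like the other genotype's pools. The replicate block gave 264, and same-numbered pools did not deviate together (r = -0.03 across 22349 genes), so the numbers were not taken as pairs. The 8 genes kept their direction in every fit run. The log2 fold change of kif7, 0.00 as reported, was -0.092 with the replicate block and ranged from -0.55 to 0.44 when 1 pool was left out, negative without kif7co63/co63 pool 2 or kif7co63/+ pool 1 (-0.03). At 6 wpf the count of 9742 stayed between 7408 and 9840 when 1 fish was left out. The count of genes differing between ages, 2209 as reported, was 3785 with DESeq2 and 439 to 6619 when 1 library was left out, with 439 and 656 without kif7co63/+ pools 1 and 2 and 6619 without kif7co63/co63 pool 2. The cause of these moves was not tested.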
